A study of Rattus norvegicus with 24 samples.

Results

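The mitosis and DNA replication genes described here are a list of 44 genes, divided into 34 genes of the mitotic group, among them the cyclins, and 10 DNA replication genes (the Mcm, Rrm, Pcna and Tyms genes). Members were found by their gene symbol in the annotation of the array platform, and where a symbol had several probes the one with the highest mean was taken. This gave a probe for 35 of the 44 (27 mitotic and 8 replication genes), among the 27342 probes on each array. Casc5 and Diaph3 have no symbol in that annotation and were matched by the probe numbers in the study's own tables, so they are counted apart. Levels of Cenpe, Cenpf, Birc5, Anln, Mki67, Mcm3 and Mcm4 were not analysed here, though all of these but Mcm4 are among the promoters described below. A filter on low values removed the lowest 15% of probes by mean (log2 5.05), and 32 members passed it, 25 mitotic and 7 replication genes. Melk, Kif20a and Rrm1 fell below it and are given as values with no test.

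A cell that divides first licenses and copies its DNA, and then separates the copies on a spindle. Cyclins switch on their partner kinases in turn, with D and E cyclins acting before and at the start of DNA synthesis, cyclin A during it and B cyclins at entry into mitosis. Neurons of the adult spinal cord have left the cell cycle, while microglia, astrocytes and oligodendrocyte precursors can divide after a spinal injury. Transcripts of the mitotic genes are made mainly late in the cycle and are low in resting cells, whereas many replication genes are also expressed outside of division.

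The data come from thoracic propriospinal (TPS) neurons, spinal interneurons whose axons run down to the lumbosacral enlargement, of female Long Evans rats aged 77 ± 10 days. All rats received the retrograde tracer Fluoro-Gold in the lumbosacral enlargement, labelled cells of the mid thoracic cord, above the lesion level, were cut out by laser microdissection, and the RNA of 1 rat was amplified and put on 1 Affymetrix Rat Gene 1.0 ST array. Of 12 rats with a complete transection at T9, 4 were taken at 3 days, 4 at 1 week, 2 at 2 weeks and 2 at 1 month. Another 12 labelled but uninjured rats served as controls, 4 each at 10 days, 3 weeks and 5 weeks after labelling. The sample labels call these controls 4 days, 2 weeks and 1 month. The 10-day controls were set against both 3 days and 1 week, so those comparisons share 4 arrays. The 3-day animals were also taken 10 days after labelling, but the 1-week animals 2 weeks after it. At 1 week, injury and labelling time therefore differ together.

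Levels are given as log2 of the deposited array intensity, where 1 unit is a doubling of intensity, and levels of different probes cannot be set against each other. The 24 arrays had median intensities of 73.6 to 81.3. The neuronal markers that stood highest, Snap25 and Thy1, were at 12.26 and 12.29 in the 10-day controls and at 12.24 and 12.23 at 3 days. Markers of other cells were measured as well. The myelin gene Mbp was at 11.27, the astrocyte enzyme Aldoc at 11.81 and the complement gene C1qc of microglia at 9.40 in the same controls, so transcripts of other cells were measured in these samples. In such samples more cells of a type and more RNA per cell cannot be told apart.

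Most of the mitotic genes were raised 3 days after transection. Relative to the 10-day controls, 23 of the 32 members tested rose and 0 fell (limma with Benjamini-Hochberg adjustment over all 23240 probes, adjusted p under 0.05), while 2.00% of all probes were called higher and 0.886% lower. The median log2 difference of the 32 members was 0.97 and that of all probes -0.01. By group, 21 of 25 mitotic genes rose, with a median of 1.05, and 2 of 7 replication genes rose, with a median of 0.21. The mitotic group also holds Ccnd1 and Ccne1, cyclins that act before and at the start of DNA synthesis, and neither was called. Prc1, which bundles the microtubules of the central spindle, rose 4.94-fold, the nucleotide reductase subunit Rrm2 4.87-fold, the DNA-untangling enzyme Top2a 4.48-fold, cyclin B1 (Ccnb1) 4.09-fold and the kinase Plk1 3.58-fold. The 23 include Bub1b, Ect2 and Kif2c, which passed the filter only through the 3-day arrays. With no filter, 24 of the 35 members with a probe were called. Fitting only the 3-day and 10-day arrays, without the spread estimated from the other 16 arrays, left 0 members called (22 probes in all). Before adjustment, 23 members had a p under 0.05. The full fit takes 1 spread for all groups, but for many of the called genes these 2 groups spread more widely. Prc1 had an SD of 1.10 in the 10-day controls and 0.73 at 3 days, beside 0.23 at 1 week. For such genes the full fit understates the spread of the groups compared, and its adjusted p values are too small. An equal-variance test of these 2 groups, run gene by gene, left 0 after adjustment as well, and 20 unadjusted. Of the 25 genes called, Casc5 and Diaph3 included, 17 were also called whichever 1 of the 24 arrays was left out, and 8 were not (Aurka, Bub1, Cdc20, Ndc80, Kif4a, Nusap1, Racgap1 and Mcm5).

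**Figure D1:**
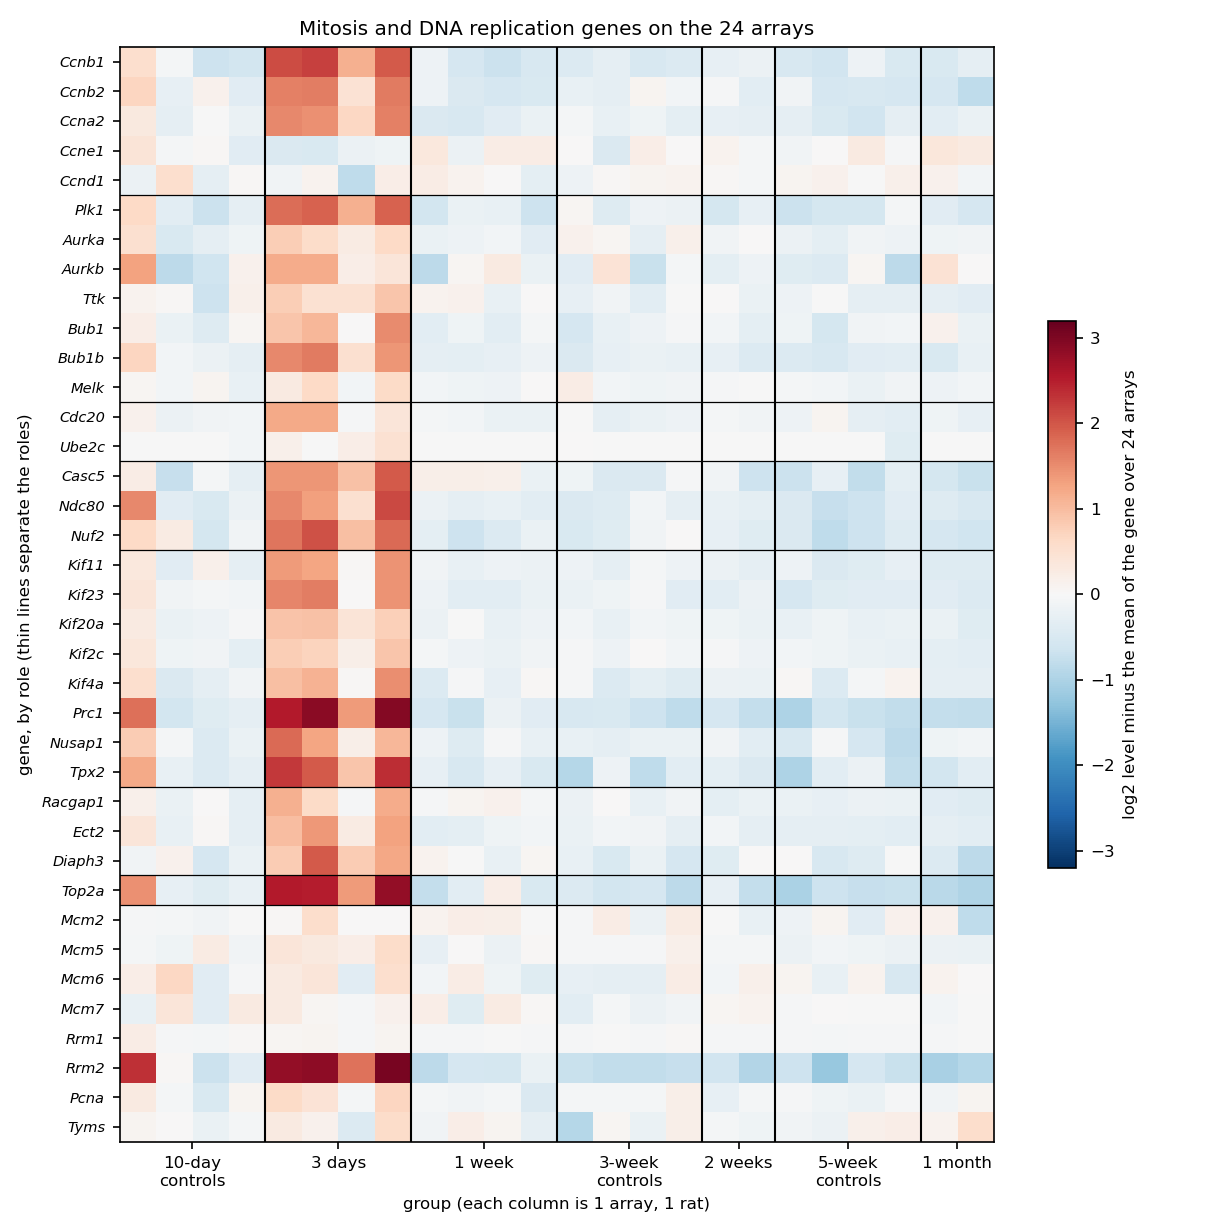
Level of each of the 35 members and of Casc5 and Diaph3 (rows, by role) on the 24 arrays (columns, by group), as log2 level minus the mean of the gene over the 24 arrays. The 3-day columns are red for most mitotic genes and for Rrm2, less so in the third animal, and the first 10-day control is also red for Prc1, Tpx2, Ndc80, Top2a and Rrm2.

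The promoters of the members differ by group in the letters they hold, as read from the RefSeq promoter table (build GRCr8, 250 bases before and 50 after each gene's start), in which 36 of the 44 members were found, 28 mitotic and 8 replication genes. Late cell cycle promoters are known for the CHR element, searched here as TTTGAA, often beside CCAAT boxes, and S-phase promoters for E2F sites, searched as TTTGGCGC, TTTCGCGC, TTTCCCGC and TTTGCCGC, all on both strands. The 36 include Cenpe, Cenpf, Birc5, Anln, Mki67 and Mcm3, whose levels were not analysed here. Over the whole 300 bases the CHR letters were in 18 of 28 mitotic genes (64.3%), in 1 of 8 replication genes (Mcm2) and in 18.3% of all 33469 promoters. Cenpf, Birc5, Anln and Mki67 are among the 18. The window of 300 bases was chosen after matches just past the start had been seen, and in the 250 bases before the start the shares were 35.7% (10 of 28) and 16.2%. E2F letters were in 0 of 28 mitotic genes but in 5 of 8 replication genes (Mcm2, Mcm5, Mcm6, Mcm7 and Tyms) within 250 bases, against 1.73% of all promoters. CCAAT was in 18 of 28 mitotic (64.3%) and 6 of 8 replication genes (75.0%), against 34.0% of all. Matches of short letters are a description and not proof of a bound site.

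Of the mitotic genes found by their symbol on the array, which leaves out Casc5, the 6 with the smallest p at 3 days that hold the CHR letters within these 300 bases are shown with the 12 bases on either side, 5′ to 3′ on the strand of the gene, with the CHR letters in capitals (TTCAAA is the same element on the other strand). Ect2 has 2 matches, of which the one nearest the start is shown.
Plk1 (chr1:186147652-186147681, + strand, bases 7 to 12 after the start): cccagcgctgcgTTTGAAttcggggaggag
Nuf2 (chr13:84255552-84255581, - strand, bases 30 to 35 after the start): aaaggcggctggTTTGAAaagtgacaacgg
Top2a (chr10:84473098-84473127, - strand, 22 to 17 bases before the start): gctagatgaatgTTCAAAtgaaactaggga
Bub1b (chr3:126017051-126017080, + strand, across the start): ggagacgttaaaTTTGAAagttggcggccc
Prc1 (chr1:143659451-143659480, + strand, 18 to 13 bases before the start): cctccggctcggTTTGAAttccgcggggtc
Ect2 (chr2:111966612-111966641, - strand, across the start): gcgtctgggtttTTTGAAtcggaggcggta

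The 250 bases before the start are shown for the mitotic genes with the smallest p in the promoter table, Ccnb1 and Plk1, and for the replication gene with the smallest p, Mcm5, with CCAAT boxes and E2F letters in capitals.
Ccnb1 (chr2:33655226-33655475, - strand): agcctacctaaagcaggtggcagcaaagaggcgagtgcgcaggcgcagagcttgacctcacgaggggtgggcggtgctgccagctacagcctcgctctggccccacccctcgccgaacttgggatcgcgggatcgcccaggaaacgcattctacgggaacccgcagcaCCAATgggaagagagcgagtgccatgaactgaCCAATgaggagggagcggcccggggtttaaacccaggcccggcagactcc
Plk1 (chr1:186147408-186147657, + strand): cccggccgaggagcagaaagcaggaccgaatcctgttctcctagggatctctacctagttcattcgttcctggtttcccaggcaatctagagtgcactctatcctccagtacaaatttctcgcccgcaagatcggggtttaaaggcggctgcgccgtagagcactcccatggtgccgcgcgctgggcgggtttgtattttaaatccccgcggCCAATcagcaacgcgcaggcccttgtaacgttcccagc
Mcm5 (chr19:13488563-13488812, + strand): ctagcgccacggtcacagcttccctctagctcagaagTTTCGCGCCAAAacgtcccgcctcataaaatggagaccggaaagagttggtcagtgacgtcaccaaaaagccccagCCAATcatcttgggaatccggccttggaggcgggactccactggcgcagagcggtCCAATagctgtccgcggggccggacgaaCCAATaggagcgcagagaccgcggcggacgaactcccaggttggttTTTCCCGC
Ccnb1 has CCAAT at 82 to 78 and 50 to 46 bases before the start, and Plk1 at 38 to 34, with the CHR letters shown above following in the first bases of the gene. Mcm5 has E2F letters at 213 to 206 bases, overlapped on the other strand by those at 209 to 202, and again in the last 8 bases before the start, and CCAAT at 137 to 133, 82 to 78 and 54 to 50. Ccna2 and Rrm2 were not in the table.

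Of the cyclins, the partners of the cell cycle kinases, the A and B types rose at 3 days and the D and E types did not. Ccnb1 read 6.63, 6.03, 5.42 and 5.51 in the 10-day controls and 8.19, 8.26, 7.22 and 8.04 at 3 days. It read 5.93, 5.55, 5.40 and 5.58 at 1 week, 5.82 and 5.90 at 2 weeks and 5.60 and 5.80 at 1 month. Ccnb1 in the 3-week controls was 5.64, 5.81, 5.57 and 5.66, and in the 5-week controls 5.59, 5.47, 5.92 and 5.59. All 4 animals of 3 days were above every control and every later animal for this cyclin of mitotic entry, and the log2 difference from the 10-day controls was 2.03 (SE 0.22, adjusted p = 2.73e-05). Ccna2 was at 7.08, 7.0, 6.22 and 7.15 in the 3-day animals, with 5.87, 5.27, 5.54 and 5.33 in their 10-day controls. At the later times Ccna2 gave 5.08, 5.03, 5.20 and 5.34 (1 week), 5.30 and 5.27 (2 weeks) and 5.22 and 5.35 (1 month). The older controls had Ccna2 at 5.48, 5.31, 5.42 and 5.24 (3 weeks) and 5.27, 5.06, 4.93 and 5.26 (5 weeks). The S-phase and early mitotic cyclin Ccna2 showed the same order with no overlap, a difference of 1.36 (SE 0.16, adjusted p = 5.73e-05). Levels of Ccnb2 were 6.73, 5.77, 6.18 and 5.68 in the 10-day controls, 7.64, 7.67, 6.51 and 7.69 at 3 days and 5.87, 5.58, 5.50 and 5.55 at 1 week. For Ccnb2, the animals of 2 weeks had 5.99 and 5.70 and those of 1 month 5.51 and 5.23. Ccnb2 stood at 5.80, 5.75, 6.12 and 5.94 in the 3-week and at 5.92, 5.50, 5.52 and 5.50 in the 5-week controls. Here the lowest 3-day animal, the third, lay below the first control, and Ccnb2 rose by 1.29 (SE 0.23, adjusted p = 0.00255), with its other probe at a difference of 1.39. For Ccne1 the 4 animals of 3 days gave 6.04, 6.01, 6.31 and 6.35, and the 10-day controls 6.90, 6.42, 6.53 and 6.13. Ccne1 then gave 6.82, 6.31, 6.72 and 6.73 at 1 week, 6.61 and 6.44 at 2 weeks and 6.85 and 6.78 at 1 month. In the older controls Ccne1 was 6.51, 6.03, 6.70 and 6.50 at 3 weeks and 6.37, 6.51, 6.79 and 6.45 at 5 weeks. Cyclin E1, which acts at the start of DNA synthesis, was -0.32 (SE 0.16, adjusted p = 0.368) from the controls with overlapping groups. Ccnd1 read 6.80, 7.54, 6.70 and 7.03 in the 10-day controls and 6.88, 7.12, 6.19 and 7.21 at 3 days. It read 7.25, 7.12, 7.02 and 6.68 at 1 week, 7.03 and 6.93 at 2 weeks and 7.13 and 6.92 at 1 month. Ccnd1 in the 3-week controls was 6.84, 7.03, 7.09 and 7.11, and in the 5-week controls 7.09, 7.15, 6.99 and 7.17. Cyclin D1, the growth factor-dependent G1 cyclin, differed by -0.17 (SE 0.18, adjusted p = 0.789), and neither of these passed the test.

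Mitotic kinases and checkpoint genes rose in 5 of 6 tested members (2.00% of all probes were called higher), of which Bub1b passed the filter only through the 3-day arrays. Plk1 was at 7.76, 7.85, 7.11 and 7.85 in the 3-day animals, with 6.61, 5.64, 5.28 and 5.67 in their 10-day controls. At the later times Plk1 gave 5.38, 5.76, 5.72 and 5.31 (1 week), 5.41 and 5.70 (2 weeks) and 5.61 and 5.42 (1 month). The older controls had Plk1 at 6.02, 5.56, 5.80 and 5.78 (3 weeks) and 5.29, 5.41, 5.41 and 5.92 (5 weeks). For Plk1, which drives centrosome maturation and spindle assembly, the lowest 3-day animal was above the highest of all other arrays, and the difference was 1.84 (SE 0.22, adjusted p = 6.68e-05). Levels of Bub1b were 5.84, 5.05, 4.96 and 4.85 in the 10-day controls, 6.69, 6.81, 5.67 and 6.57 at 3 days and 4.87, 4.84, 4.88 and 4.99 at 1 week. For Bub1b, the animals of 2 weeks had 4.89 and 4.72 and those of 1 month 4.67 and 4.91. Bub1b stood at 4.69, 4.88, 4.95 and 4.90 in the 3-week and at 4.71, 4.64, 4.79 and 4.82 in the 5-week controls. Bub1b, a spindle checkpoint protein, rose by 1.26 (SE 0.20, adjusted p = 0.00091), the third 3-day animal lying under the first control. For Aurkb the 4 animals of 3 days gave 7.66, 7.66, 6.69 and 6.86, and the 10-day controls 7.75, 5.63, 5.84 and 6.60. Aurkb then gave 5.64, 6.54, 6.77 and 6.25 at 1 week, 6.15 and 6.31 at 2 weeks and 6.93 and 6.48 at 1 month. In the older controls Aurkb was 6.11, 6.92, 5.77 and 6.40 at 3 weeks and 6.08, 6.04, 6.54 and 5.64 at 5 weeks. Levels of Aurkb, the kinase of the chromosomal passenger complex, spread over more than 2 log2 units among the controls, and its difference of 0.76 (SE 0.37, adjusted p = 0.355) did not pass. Aurkb was called with all 12 controls pooled (adjusted p = 0.0458) and with the 5-week controls in place of the 10-day controls (0.0411). The checkpoint kinases Ttk and Bub1 and the centrosome kinase Aurka rose by 0.75, 0.96 and 0.68 log2. Without any 1 of 2 arrays Bub1 lost its call (adjusted p 0.0574 and 0.0636), and without any 1 of 5 Aurka did (0.051 to 0.0689), as it did with array quality weights (adjusted p = 0.0883). Melk, below the filter, averaged 5.39 at 3 days and 4.97 in the controls.

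The anaphase-promoting complex, which marks mitotic proteins for destruction, is represented by its activator Cdc20 and its ubiquitin-conjugating enzyme Ube2c. Cdc20 read 5.63, 5.32, 5.39 and 5.42 in the 10-day controls and 6.71, 6.72, 5.46 and 5.90 at 3 days. It read 5.43, 5.42, 5.30 and 5.30 at 1 week, 5.44 and 5.39 at 2 weeks and 5.35 and 5.24 at 1 month. Cdc20 in the 3-week controls was 5.48, 5.21, 5.29 and 5.33, and in the 5-week controls 5.33, 5.60, 5.22 and 5.16. Cdc20 was high in the first and second 3-day animals, the third lay within the control range, and Cdc20 rose by 0.76 (SE 0.19, adjusted p = 0.031) with overlapping groups. The call of Cdc20 was lost without any 1 of 5 arrays (adjusted p 0.0628 to 0.132). Ube2c was at 5.89, 5.71, 5.96 and 6.22 in the 3-day animals, with 5.71, 5.71, 5.71 and 5.64 in their 10-day controls. At the later times Ube2c gave 5.71, 5.73, 5.71 and 5.71 (1 week), 5.71 and 5.71 (2 weeks) and 5.71 and 5.71 (1 month). The older controls had Ube2c at 5.75, 5.71, 5.71 and 5.71 (3 weeks) and 5.71, 5.71, 5.71 and 5.35 (5 weeks). The probe of Ube2c gave the identical value of 5.71 on 17 of 24 arrays, and its difference of 0.25 (SE 0.09, adjusted p = 0.155) did not pass the test. Ube2c was called with all 12 controls pooled (adjusted p = 0.0216) and with the 5-week controls in place of the 10-day controls (0.0179).

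Kinetochore genes, whose products tie chromosomes to the spindle, rose at 3 days in both tested members found by symbol, Nuf2 and Ndc80, and in Casc5 (2.00% of all probes were called higher). Levels of Nuf2 were 6.03, 5.64, 4.83 and 5.26 in the 10-day controls, 7.09, 7.41, 6.36 and 7.20 at 3 days and 5.07, 4.71, 4.94 and 5.17 at 1 week. For Nuf2, the animals of 2 weeks had 5.11 and 5.0 and those of 1 month 4.86 and 4.75. Nuf2 stood at 4.88, 5.01, 5.28 and 5.41 in the 3-week and at 4.91, 4.56, 4.73 and 4.97 in the 5-week controls. Nuf2, a subunit of the Ndc80 complex, had no overlap with the 10-day controls and rose by 1.58 (SE 0.22, adjusted p = 0.00023). For Casc5 the 4 animals of 3 days gave 7.48, 7.47, 6.99 and 8.04, and the 10-day controls 6.31, 5.31, 6.0 and 5.76. Casc5 then gave 6.26, 6.24, 6.23 and 5.86 at 1 week, 5.96 and 5.40 at 2 weeks and 5.49 and 5.34 at 1 month. In the older controls Casc5 was 5.93, 5.59, 5.59 and 6.02 at 3 weeks and 5.38, 5.81, 5.28 and 5.74 at 5 weeks. Casc5 (Knl1), the scaffold of the checkpoint at kinetochores, rose by 1.65 (SE 0.21, adjusted p = 0.000117), again with every 3-day animal above every control. Ndc80 read 7.77, 5.87, 5.75 and 6.06 in the 10-day controls and 7.78, 7.56, 6.76 and 8.35 at 3 days. It read 6.05, 5.94, 6.0 and 5.89 at 1 week, 6.01 and 5.92 at 2 weeks and 5.82 and 5.71 at 1 month. Ndc80 in the 3-week controls was 5.78, 5.83, 6.14 and 5.94, and in the 5-week controls 5.76, 5.51, 5.58 and 5.87. In contrast to these, Ndc80 in the first control was at the level of the 3-day animals, and its difference was 1.25 (SE 0.32, adjusted p = 0.0356). The call of Ndc80 was lost with array quality weights (difference 0.90, adjusted p = 0.187) and without any 1 of 6 arrays (adjusted p 0.0795 to 0.133).

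All 7 tested spindle motors and microtubule proteins rose (2.00% of all probes were called higher), of which Kif2c passed the filter only through the 3-day arrays. Prc1 was at 9.16, 9.51, 7.99 and 9.57 in the 3-day animals, with 8.38, 6.04, 6.23 and 6.34 in their 10-day controls. At the later times Prc1 gave 6.08, 5.92, 6.45 and 6.25 (1 week), 6.09 and 5.86 (2 weeks) and 5.85 and 5.83 (1 month). The older controls had Prc1 at 6.10, 6.14, 5.96 and 5.80 (3 weeks) and 5.64, 6.03, 5.90 and 5.83 (5 weeks). Prc1 had the largest difference among the mitotic genes tested, 2.30 (SE 0.37, adjusted p = 0.00103), although the first control was above the third 3-day animal. Levels of Tpx2 were 8.19, 6.74, 6.54 and 6.70 in the 10-day controls, 9.24, 8.94, 7.87 and 9.33 at 3 days and 6.71, 6.47, 6.71 and 6.49 at 1 week. For Tpx2, the animals of 2 weeks had 6.67 and 6.53 and those of 1 month 6.39 and 6.65. Tpx2 stood at 6.07, 6.83, 6.17 and 6.64 in the 3-week and at 5.98, 6.64, 6.80 and 6.19 in the 5-week controls. Tpx2, which targets Aurora A to the spindle, rose by 1.80 (SE 0.32, adjusted p = 0.00225), and again the first control exceeded the third 3-day animal. For Nusap1 the 4 animals of 3 days gave 7.30, 6.75, 5.69 and 6.57, and the 10-day controls 6.32, 5.45, 5.06 and 5.29. Nusap1 then gave 5.35, 5.09, 5.47 and 5.26 at 1 week, 5.39 and 5.16 at 2 weeks and 5.36 and 5.41 at 1 month. In the older controls Nusap1 was 5.25, 5.21, 5.29 and 5.28 at 3 weeks and 4.99, 5.46, 4.96 and 4.65 at 5 weeks. Nusap1, a spindle-stabilising protein, had the largest p of this group, with a difference of 1.05 (SE 0.26, adjusted p = 0.0282), and its call was lost with array quality weights (adjusted p = 0.0649) and without any 1 of 6 arrays (adjusted p 0.0608 to 0.109). The kinesins Kif23, Kif11, Kif4a and Kif2c, which slide or shorten microtubules, rose by 1.14, 1.05, 0.98 and 0.69 log2, the call of Kif4a being lost without any 1 of 6 arrays (adjusted p 0.0527 to 0.0876). Kif20a, below the filter, was at 5.44 to 5.97 in the 3-day animals and at 4.81 to 5.32 in the 10-day controls, with no overlap.

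Genes of cytokinesis, the final separation of the daughter cells, rose in both tested members found by symbol (2.00% of all probes were called higher). Of the genes in this paragraph, Ect2 and Diaph3 passed the filter only through the 3-day arrays. Ect2 read 5.59, 4.96, 5.24 and 4.91 in the 10-day controls and 6.21, 6.59, 5.48 and 6.49 at 3 days. It read 4.88, 4.89, 5.07 and 5.11 at 1 week, 5.12 and 4.93 at 2 weeks and 4.93 and 4.88 at 1 month. Ect2 in the 3-week controls was 5.0, 5.12, 5.11 and 4.93, and in the 5-week controls 4.91, 4.91, 4.90 and 4.88. Ect2, the exchange factor that activates RhoA at the cleavage furrow, rose by 1.01 (SE 0.17, adjusted p = 0.00167), with the third 3-day animal below the first control. Racgap1 was at 7.47, 6.93, 6.30 and 7.52 in the 3-day animals, with 6.49, 6.11, 6.32 and 6.02 in their 10-day controls. At the later times Racgap1 gave 6.27, 6.41, 6.45 and 6.27 (1 week), 6.01 and 6.11 (2 weeks) and 5.95 and 5.91 (1 month). The older controls had Racgap1 at 6.14, 6.32, 6.10 and 6.21 (3 weeks) and 6.10, 6.05, 6.13 and 6.11 (5 weeks). The centralspindlin subunit Racgap1 rose by 0.82 (SE 0.17, adjusted p = 0.0113), its groups overlapped, and without the first 3-day animal the adjusted p was 0.0505. Levels of Diaph3 were 5.16, 5.42, 4.74 and 5.07 in the 10-day controls, 6.08, 7.25, 6.10 and 6.51 at 3 days and 5.38, 5.26, 5.05 and 5.34 at 1 week. For Diaph3, the animals of 2 weeks had 4.89 and 5.29 and those of 1 month 4.84 and 4.45. Diaph3 stood at 5.04, 4.80, 5.07 and 4.74 in the 3-week and at 5.28, 4.77, 4.85 and 5.27 in the 5-week controls. Diaph3, a formin that builds actin filaments, was above all controls in each 3-day animal and rose by 1.39 (SE 0.21, adjusted p = 0.000577).

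For Top2a the 4 animals of 3 days gave 8.90, 8.90, 7.75 and 9.18, and the 10-day controls 7.84, 6.10, 5.98 and 6.15. Top2a then gave 5.61, 6.03, 6.58 and 5.90 at 1 week, 6.11 and 5.61 at 2 weeks and 5.51 and 5.42 at 1 month. In the older controls Top2a was 5.93, 5.79, 5.83 and 5.55 at 3 weeks and 5.37, 5.70, 5.63 and 5.66 at 5 weeks. Top2a, which resolves tangled DNA before chromosomes part, rose by 2.16 (SE 0.33, adjusted p = 0.000645), and only the third of the 3-day animals lay below the first control.

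Replication genes separated into Rrm2, which rose as far as the top mitotic genes, and the rest, of which only Mcm5 passed the test, and Pcna under some other settings. Rrm2 read 10.01, 7.69, 6.97 and 7.29 in the 10-day controls and 10.47, 10.53, 9.40 and 10.70 at 3 days. It read 6.83, 7.13, 7.10 and 7.44 at 1 week, 7.05 and 6.72 at 2 weeks and 6.63 and 6.76 at 1 month. Rrm2 in the 3-week controls was 6.94, 6.86, 6.86 and 6.92, and in the 5-week controls 7.0, 6.46, 7.13 and 6.96. Rrm2, the regulatory subunit of ribonucleotide reductase, rose by 2.28 (SE 0.42, adjusted p = 0.00333), with its other probe at 2.17, and the first control, at 10.01, lay within the 3-day range. Mcm5 was at 5.83, 5.74, 5.65 and 6.02 in the 3-day animals, with 5.39, 5.30, 5.70 and 5.34 in their 10-day controls. At the later times Mcm5 gave 5.18, 5.46, 5.24 and 5.48 (1 week), 5.39 and 5.39 (2 weeks) and 5.25 and 5.24 (1 month). The older controls had Mcm5 at 5.41, 5.41, 5.40 and 5.60 (3 weeks) and 5.25, 5.35, 5.30 and 5.26 (5 weeks). Mcm5, a subunit of the replicative helicase, rose by 0.38 (SE 0.09, adjusted p = 0.029), a 1.30-fold change. This call was lost without any 1 of 6 arrays, all those of both groups but the third of each (adjusted p 0.0501 to 0.11). Levels of Mcm6 were 6.54, 7.0, 5.96 and 6.30 in the 10-day controls, 6.62, 6.73, 5.97 and 6.88 at 3 days and 6.24, 6.58, 6.21 and 5.94 at 1 week. For Mcm6, the animals of 2 weeks had 6.25 and 6.49 and those of 1 month 6.45 and 6.35. Mcm6 stood at 6.07, 6.06, 6.04 and 6.57 in the 3-week and at 6.42, 6.11, 6.46 and 5.82 in the 5-week controls. Its partner Mcm6 had the largest p, with a difference of 0.10 (SE 0.21, adjusted p = 0.912). Mcm2, Mcm7 and Tyms, the enzyme that makes thymidylate, differed by 0.21, 0.08 and 0.19 log2, and Pcna, the sliding clamp, by 0.46 (adjusted p = 0.13), none of them past the test. Pcna was called without the third 3-day animal (adjusted p = 0.013) and with the replicate number as a block (0.0334). It was also called with all 12 controls pooled (0.0158) and with the 5-week controls in place of the 10-day controls (0.0257). Rrm1, the large reductase subunit, was below the filter at a mean of 4.78 in both groups, and its probe gave 1 identical value on 11 of 24 arrays.

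**Figure D2:**
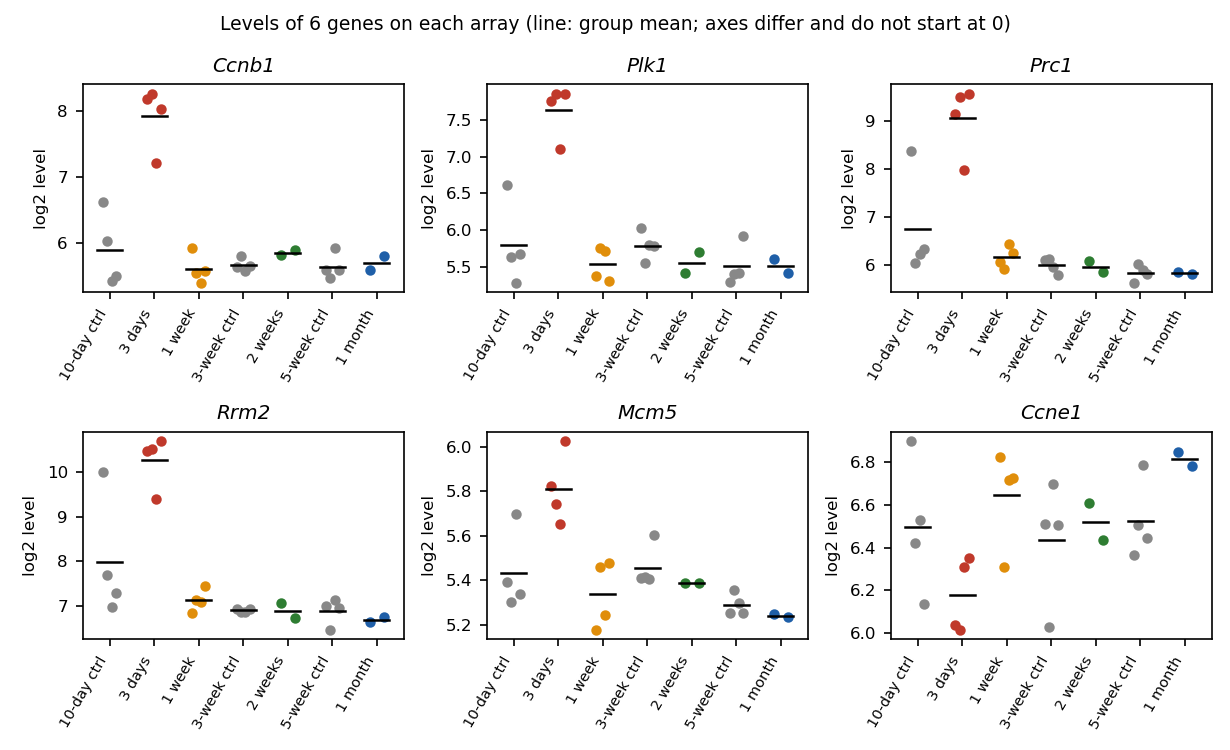
Log2 level of 6 members on each array (points, 1 rat each) with the group mean (line), axes differing between genes. Ccnb1, Plk1, Prc1 and Rrm2 had their highest group mean at 3 days, and their 1-week points lie below all 3-day points. Mcm5 moved by less than 1 log2 unit, and Ccne1 was not raised at 3 days.

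By 1 week no member differed from the controls past the test. Against the same 10-day controls 0 of 32 members were called at 1 week (0% of all probes were), 2 had an unadjusted p under 0.05 (Ccna2 and Nuf2, both lower), and the gene-by-gene equal-variance test also gave 0. The median log2 difference was -0.15, with 7 members positive and 25 negative, beside a median of all probes of -0.00064. Rrm2 was -0.86 and Prc1 -0.58 log2 from the controls, neither past the test. Both differences lean on the first 10-day control. It had Rrm2 at 10.01 beside 6.97 to 7.69 in the other controls and 6.83 to 7.44 at 1 week. Its Prc1 was 8.38 beside 6.04 to 6.34 in the others and 5.92 to 6.45 at 1 week. Since both times share their controls, the change of the effect between them is the direct difference of the 3-day and 1-week animals. In it 24 of 32 members were higher at 3 days (1.93% of all probes were) and 22 had no overlap (3.72% of all probes had every 3-day array above every 1-week array). Both counts include Bub1b, Ect2 and Kif2c, which passed the filter only through the 3-day arrays. The median difference of the 32 members was 1.08, that of the mitotic genes 1.21 and that of the replication genes 0.31.

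Rrm2 had the largest difference between 3 days and 1 week among the members tested, 8.87-fold, a log2 difference of 3.15 (SE 0.42, adjusted p = 0.000208). Prc1 differed by 2.88 (SE 0.37, adjusted p = 0.000148), Top2a by 2.65 (SE 0.33, adjusted p = 0.000105) and Ccnb1 by 2.32 (SE 0.22, adjusted p = 1.25e-05). Of the replication genes, Mcm5 (0.47) and Pcna (0.60) also passed, as did 21 of 25 mitotic genes, those not called being Ccne1, Ccnd1, Aurkb and Ube2c. Racgap1 and Pcna passed with overlapping groups. The call of Pcna was lost with no filter (adjusted p = 0.0519) and without any 1 of 19 of the 24 arrays (0.0507 to 0.16), and that of Racgap1 with the replicate number as a block (adjusted p = 0.0661) and without any 1 of 7 arrays (0.0552 to 0.139). Leaving out 1 array also ended the call of Ttk (3 arrays), Cdc20 (4 arrays) and Kif4a (1 array), and of no other gene called here. The spread of the 1-week animals differed between genes, Bub1b being between 4.84 and 4.99 in them and Top2a between 5.61 and 6.58. Casc5 and Diaph3, counted apart, differed by 1.35 and 1.23. Fitting only these 2 groups called 14 members (26 before adjustment). The gene-by-gene equal-variance test gave 0 with adjustment and 25 without.

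**Figure D3:**
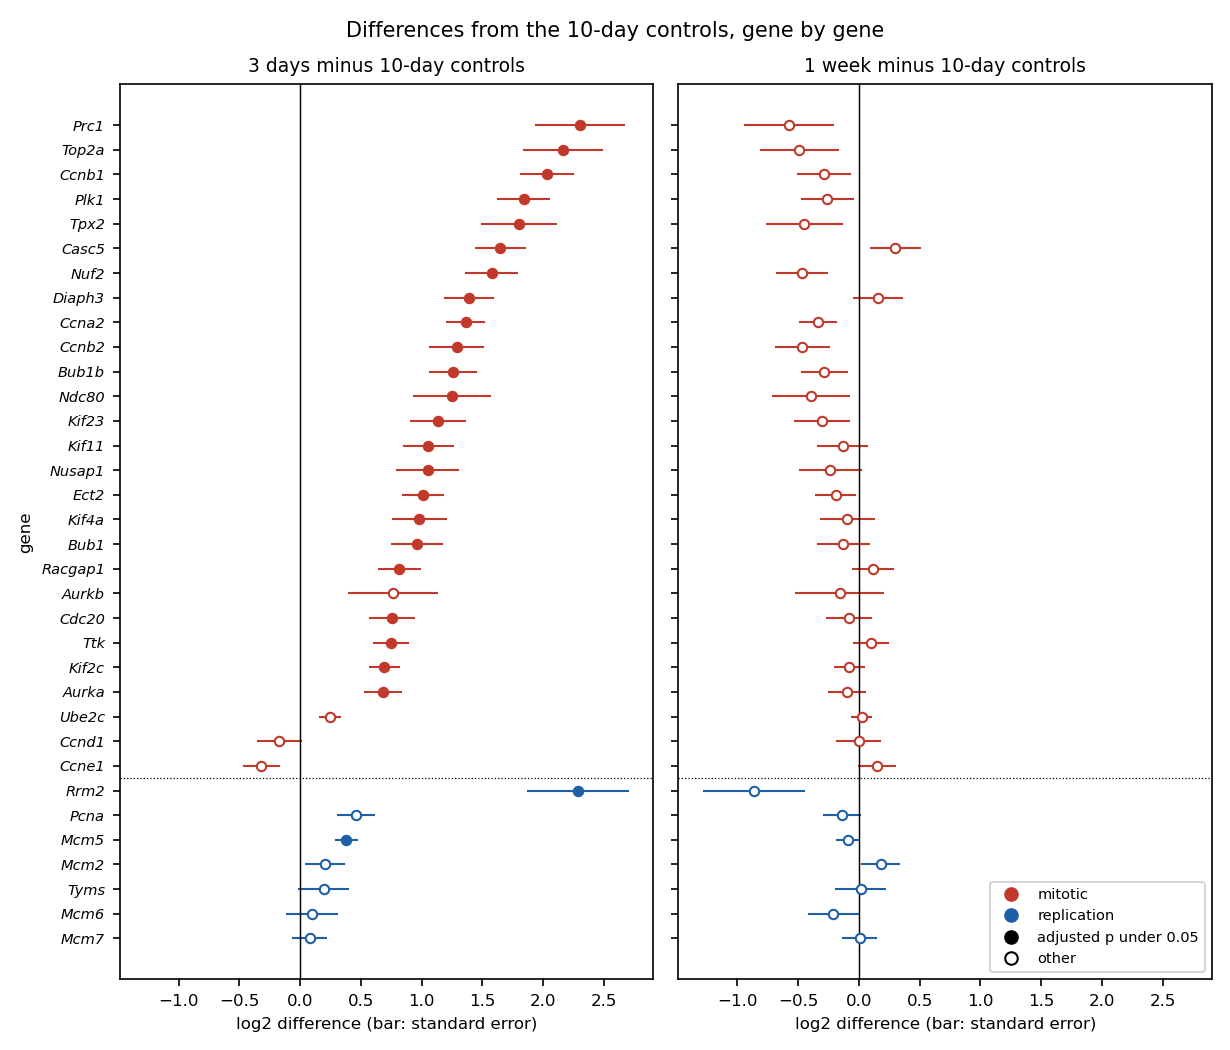
Log2 difference of each tested gene from the 10-day controls (points, bars are the standard error of the limma fit) at 3 days and at 1 week, with filled points for an adjusted p under 0.05. At 3 days all but 4 mitotic genes and, of the replication genes, Rrm2 and Mcm5 are filled, and at 1 week none is.

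At 2 weeks and at 1 month, each with 2 animals, no member passed the test against its own controls. Called were 0 of 32 at 2 weeks (0% of all probes), the median being -0.02 log2, and 0 of 32 at 1 month (0% of all probes), with a median of 0.01. The rise at 3 days exceeded the effect at 2 weeks past the test for Ccnb1, Ccna2 and Plk1 (0.0602% of all probes were called higher), and the effect at 1 month for Ccnb1 and Plk1 (0.0731% of all probes). For Plk1 the difference between the effects was 2.07 (SE 0.35, adjusted p = 0.0269) for 2 weeks and 1.83 (SE 0.35, adjusted p = 0.0443) for 1 month. These counts changed with single arrays. The count for 2 weeks fell to 0 without any 1 of 10 of the 24 arrays and was highest, 14, without the third 3-day animal, and that for 1 month fell to 0 without any 1 of 11 and was highest, 16, without the same animal. The median difference between the effects was 0.93 for both times, and 24 and 23 members had an unadjusted p under 0.05. Averaged over the 4 times, 0 members were called (0.370% of all probes were called higher), 5 having an unadjusted p under 0.05. The 3 sets of controls were compared as well. Between 10-day and 3-week controls 0 members were called (0% of all probes), between 10-day and 5-week controls 0 (0.00430% of all probes), with medians of 0.16 and 0.25 log2 higher at 10 days.

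Within the 2 early groups, 1 array in each departed from the rest for these genes. Averaged over the 27 mitotic genes with a probe, and relative to each gene's mean over 24 arrays, the first 10-day control stood at 0.57 while the others stood at -0.20, -0.25 and -0.19. The third 3-day animal stood at 0.38, and the others at 1.24, 1.23 and 1.30. The 4 animals of 1 week lay between -0.24 and -0.18. Of the 32 members, 6 had every 3-day array above every 10-day control (2.75% of all probes did). Those were Ccnb1, Ccna2, Plk1, Ttk, Nuf2 and Mcm2, and Casc5 and Diaph3 in addition. The count at 3 days was 16 to 24 when any 1 of the 24 arrays was left out, lowest without the first 3-day animal, and 10 without 10-day controls 3 and 4 together. Over all probes tested, those 2 had the lowest array quality weights, 0.33 and 0.48, while the first 10-day control had 1.46. The third 3-day animal had the next lowest weight, 0.62, so its departure was not confined to these genes. With all 12 controls pooled the count at 3 days was 26, with the 3-week controls in place of the 10-day controls 23, and with the 5-week controls 26.

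Cell cycle genes that are not on the list were counted in the same way, beside 2.00% of all probes called higher at 3 days and 0.886% lower. Of other mitosis genes, 12 of 27 tested rose at 3 days and 0 fell, with a median of 0.61. Cep55, which acts at abscission, was at 5.53, 4.83, 4.90 and 4.83 in the 10-day controls and at 6.64, 6.26, 5.92 and 6.18 at 3 days. The kinesin Kif22 (0.82), Fam64a (1.61) and the mitotic kinase Cdk1 (1.81) rose too, and Cep55 rose by 1.23 with no overlap of the groups. Of 26 other replication and S-phase genes, 1 rose, the replisome subunit Gins1, by 1.19 (adjusted p = 0.00272), and the median was 0.05. Among 15 G1 cyclins, kinases and E2F regulators 1 rose, the kinase Cdk6, by 0.95, with a median of 0.04. In lists of this size 1 call is no result about the list. The mitotic regulators Foxm1 and Mybl2 differed by 0.14 and -0.01 and did not pass the test.

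Inhibitors of the cycle were measured beside these genes, with the same shares of all probes called at 3 days (2.00% higher and 0.886% lower). Cdkn1a, the p53-induced inhibitor p21, was at 8.10, 7.20, 7.16 and 7.60 in the 10-day controls and at 8.90, 8.71, 8.33 and 8.54 at 3 days, with no overlap and a difference of 1.11 (SE 0.21, adjusted p = 0.00427). Cdkn2c, an inhibitor of Cdk4 and Cdk6, rose by 1.45 and the stress gene Gadd45a by 0.59, which makes 3 of 16 tested inhibitors and p53 targets higher and 0 lower, with a median of 0.18. Of 9 genes of homologous recombination and the S-phase checkpoint, Bard1, Fancd2 and Atm rose, by 0.81, 0.51 and 0.48, with a median of 0.14 for the group. At 1 week 0 genes of these 5 lists were called (0% of all probes). Cdkn1a then lay 0.63 above the controls, not past the test.

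Markers of microglia and macrophages, cells that can divide after injury, moved at 3 days as well. Of 16 markers 11 rose and 0 fell (2.00% and 0.886% of all probes did), with a median log2 difference of 1.13. All 16 passed the filter, so none was undetected by that measure. C1qc rose by 1.65 and Aif1 by 0.63, the markers with the highest means. Averaged over the 16, the markers stood between 0.70 and 1.29 in the 3-day animals and between -0.85 and 0.40 in the 10-day controls, relative to the mean over 24 arrays. The third 3-day animal, lowest for the mitotic genes, was also lowest for these markers, at 0.70. The first 10-day control, highest of its group for the mitotic genes, was at 0.05, between its fellow controls. At 1 week the markers stood between 0.13 and 0.73, with 16 of 16 differences positive, a median of 0.46 and 0 called (0% of all probes). The mitotic average then lay between -0.24 and -0.18. The part of microglial RNA in the rise of the mitotic genes was not tested.

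**Figure D4:**
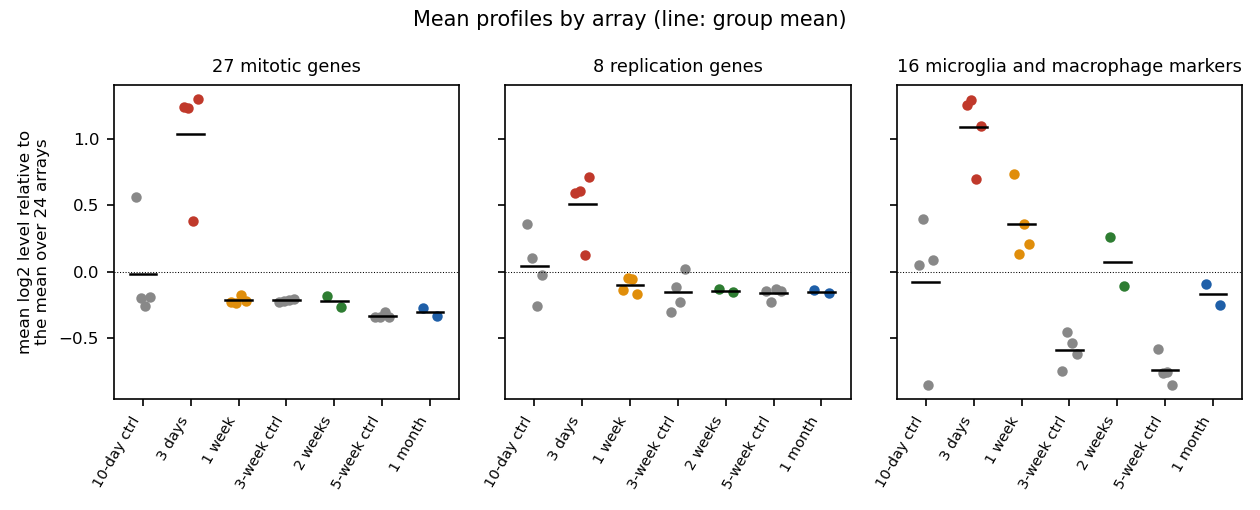
Mean log2 level relative to the mean over 24 arrays for the mitotic genes, the replication genes and the microglia and macrophage markers, 1 point for each array and a line at each group mean. All 3 averages are highest at 3 days. At 1 week the mitotic average is at -0.24 to -0.18 and the microglial average at 0.13 to 0.73.

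Other marker lists moved differently, beside 2.00% of all probes called higher at 3 days and 0.886% lower. Of 6 genes of reactive astrocytes 4 rose at 3 days (Serpina3n, Timp1, Vim and Lcn2), and the list stood between 0.93 and 1.61 in the 3-day animals and between -0.37 and 0.15 at 1 week, so it too was at its highest at 3 days. Their part in the rise was not tested. Among 8 astrocyte markers 0 rose and 2 fell, the transporter Slc6a11 and the channel Kcnj10. Of those not called, Gfap and Slc1a3 had a higher mean at 3 days than in the 10-day controls and the others a lower one. Gfap was at 11.27, 11.17, 8.93 and 10.46 in these controls and at 11.48, 11.55, 10.95 and 11.50 at 3 days. Markers of oligodendrocyte precursors, the dividing glia of the adult cord, were called in 0 of 6 (Olig1 -0.13, Pdgfra 0.48, both not called). For ependymal and progenitor cells the count was 0 of 6, for endothelial cells and pericytes 0 of 8, and for neutrophils 0 of 5. Oligodendrocytes had 1 of 7 (Cldn11), fibroblasts 1 of 7 (Lox) and lymphocytes 1 of 6 (Cd4, also made by microglia and macrophages of the rat). In lists this short 1 call is no result about the cell type. Of 10 neuronal markers Tubb3 rose by 0.34 and Rbfox3 fell by 0.40 log2, and 8 were not called.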

How the data were processed

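Total RNA of microdissected cells was amplified, and 24 arrays of 24 rats in 7 groups entered. RMA, which the submitters' notes name with no version, was run by the authors, and the deposited values are intensity on a linear scale (17 to 7980), taken to log2 here. No background or detection call comes with them, so precision rests on how many arrays a group has. Probes above the lowest 15% (intensity 33.2) entered a fit of 7 group means in limma 3.58.1 (R 4.3.3), with empirical Bayes moderation and Benjamini-Hochberg adjustment within each comparison. Adjusted p values are from this fit except where the text says otherwise. The fit was checked on simulated arrays, random values with known changes added. These had equal spread in all groups and no shared shifts of whole arrays, unlike the data.

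Members and lists were chosen with earlier results of these data known. Values on every array are given for all cyclins and, in each role, for the 2 genes with the smallest p at 3 days and the gene with the largest. Of the other cell cycle lists, up to 3 called genes with the smallest p are named, and of marker lists the 2 with the highest mean, where the text turns on them. Cdk1, Foxm1 and Mybl2, the called markers, Gfap and Slc1a3, and the CHR sites shown were chosen after their values were seen. Promoters came from RefSeq (GRCr8). Replicate numbers do not pair the rats: arrays with the same number correlated at a mean r of 0.0215 (55 pairs), others at -0.0063 (189 pairs). Python 3.11.15, pandas 2.3.3 and matplotlib 3.10.9 were used.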

Additional observations from a re-analysis of the deposited data

Results flagged for a closer look

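In each group of 4 arrays, the gap between the highest or lowest array and its nearest neighbour was set against the range of the group, and a gap above Dixon's critical value for 4 values was singled out. Of 185 pairs of gene and group 27 (14.6%) were, while chance gives about 1 in 20 for a single pair. The genes share their arrays and move together, so the pairs are not independent and the count cannot be judged against that share. The gap as a share of the range follows each gene in parentheses.

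The first 10-day control was far above the other 3 for Ndc80 (0.846), Kif23 (0.869), Prc1 (0.872), Tpx2 (0.879) and Top2a (0.91). Its Top2a level of 7.84 lay beside 5.98 to 6.15 in the others. The third 3-day animal was far below the other 3 for Ccnb2 (0.957), Ccna2 (0.84), Plk1 (0.867), Kif11 (0.87) and Kif23 (0.881), with Kif23 at 6.10 beside 7.53 to 7.72.

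Among the 5-week controls such arrays were seen for Ccnb2 (animal 1, highest, 0.937), Bub1 (animal 2, lowest, 0.893), Ube2c (animal 4, lowest, 1.0), Kif23 (animal 1, lowest, 0.866) and Rrm1 (animal 2, lowest, 0.905). Within the animals of 1 week such arrays were seen for Ube2c (animal 2, highest, 1.0), Casc5 (animal 5, lowest, 0.929), Rrm1 (animal 4, highest, 1.0) and Pcna (animal 5, lowest, 0.84). Among the 3-week controls such arrays were seen for Melk (animal 1, highest, 0.884), Ube2c (animal 1, highest, 1.0), Mcm5 (animal 4, highest, 0.952), Mcm6 (animal 4, highest, 0.953) and Pcna (animal 4, highest, 0.941). Within the animals of 3 days such arrays were seen for Mcm2 (animal 2, highest, 0.948). Among the 10-day controls such arrays were seen for Ttk (animal 3, lowest, 0.84) and Ube2c (animal 4, lowest, 1.0). For Ube2c and Rrm1 most other arrays share 1 identical value, so small departures are marked. No cause was tested for any of these arrays.

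The effect of transection differed between 3 days and 1 week for 24 members, between 3 days and 2 weeks for 3, and between 3 days and 1 month for 2, each tested in the limma fit across all probes at an adjusted p under 0.05, and in every case the effect at 3 days was the higher. Of all probes, 1.93%, 0.0602% and 0.0731% were called higher at 3 days in these comparisons.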

How the results depend on the processing

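The count of 23 members called at 3 days was 20 to 26 under the other settings except 6 of 13 tested when only probes above the median of all were kept (fewer members are then tested), 10 without 10-day controls 3 and 4, 0 with only the 2 groups compared and 0 with a gene-by-gene t-test of the 2 groups. Leaving out 1 array gave 16 to 24. The count of 24 between 3 days and 1 week was 7 with the median filter, 14 with only the 2 groups and 0 with the t-test, and 20 to 24 leaving out 1 array. The 3 members whose effect at 3 days exceeded that at 2 weeks became 0 with the median filter or without those 2 controls and 20 without 10-day control 1 and 3-day animal 3 (arrays picked for their values of these genes, so that a higher count is no support), and the 2 for 1 month became 0, 0 and 21, with 1 after a further quantile or cyclic loess normalization. Leaving out 1 array gave 0 to 14 and 0 to 16 for these, the highest without the third 3-day animal. The mean effect over 4 times, 0 called, gave 15 without those same 2 arrays and 0 to 3 leaving out 1. Between 10-day controls and the 3-week or 5-week controls, 0 became 1 and 1 with array quality weights, and 1 and 2 without 10-day controls 3 and 4. The mitotic median of 1.05 was 1.51 without 10-day control 1 and 3-day animal 3, and 0.92 to 1.35 leaving out 1 array, and the replication median of 0.21 was 0.19 to 0.39. At 1 week, 2 weeks and 1 month the count stayed at 0 under every setting run. Apart from the stated settings that end the call, the cause of these shifts was not tested.

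With the replicate number as a replicate block, 24 members were called at 3 days, 23 between 3 days and 1 week, 1 for 3 days minus 2 weeks, 2 for 3 days minus 1 month and 0 at 1 week, so the block changed the count by over 1.5 times only for 2 weeks. The numbers do not pair the rats. Of the genes, 11 were called at 3 days under each setting that kept the spread of all groups and tested them (38 settings for Prc1 and Top2a, 37 for the others): Bub1b, Ccna2, Ccnb1, Ect2, Nuf2, Plk1, Prc1, Top2a, Ttk, Casc5 and Diaph3. Of these, Bub1b, Ect2 and Diaph3 passed the filter only through the 3-day arrays.

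Genes that changed sign were all uncalled. Leaving out 1 array moved the difference from the 10-day controls from -0.29 to 0.049 for Ccnd1, from -0.064 to 0.29 for Mcm6 and from -0.047 to 0.20 for Mcm7, and Mcm6 was at -0.22 without 10-day controls 3 and 4. Between 3 days and 1 week the range was -0.29 to 0.050 for Ccnd1 (0.050 also without 10-day control 1 and 3-day animal 3), -0.10 to 0.076 for Mcm2 and -0.067 to 0.15 for Mcm7.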

Other observations

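Of the 44 members, 8 had no entry in the promoter table, and 300-base windows held E2F letters in 6 of the 8 replication genes found there (75.0%), against 2.14% of all promoters, and in 0 of 28 mitotic genes. The CHR letters and CCAAT occurred together, within 250 bases before the start, in 8 of 28 mitotic genes (28.6%), in 0 of 8 replication genes and in 5.87% of all promoters.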
